A study of Homo sapiens with 9 samples.

Results

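The 6 genes described here, PNPLA3, TM6SF2, MBOAT7, GCKR, HSD17B13 and MTARC1, are those in which common inherited variants alter the risk of fatty liver. They were taken as a fixed list of symbols and matched to Ensembl identifiers in a table of 19317 genes, where all 6 were found. All 6 also passed the filter on low counts, among 13636 genes tested. Expression was measured by RNA sequencing in HepG2, an established human cell line from a hepatocellular carcinoma, in 3 groups of 3 samples. DNL, the model of de novo lipogenesis, was grown in DMEM for 1 week. Its medium held insulin at 10 µg/ml and, at 10 µM, T0901317, which activates the liver X receptors (LXR). OA, the oleic acid model, was given DMEM with 25 µM oleic acid, dissolved in 11% bovine serum albumin (BSA), for 6 hours. WT, the control, was kept in RPMI. Each medium was supplemented with 10% FBS and 1% P/S, and the genotype label of every sample is WT. The medium differs between each model and the control, the 2 models differ in duration as well as in compounds, and no sample received albumin alone, so these effects cannot be told apart. Allelic states in this cell line were not analysed here.

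Fatty liver arises when hepatocytes store more triacylglycerol in lipid droplets than they burn or export in very low density lipoprotein (VLDL). The 6 proteins act at different points of that balance. PNPLA3 sits on lipid droplets and HSD17B13 is a droplet enzyme of lipid and retinol metabolism. TM6SF2 helps to load lipid onto VLDL in the secretory pathway, and MBOAT7 attaches arachidonic acid to lysophosphatidylinositol, a membrane phospholipid precursor. GCKR is a nuclear regulatory protein that restrains glucose phosphorylation in hepatocytes, and MTARC1 is a molybdenum enzyme of the mitochondrial outer membrane.

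In GENCODE release 29 on GRCh38, the build named in the submitters' processing notes, all 6 are protein-coding genes. PNPLA3 (ENSG00000100344) lies on the plus strand of chromosome 22, from 43923739 to 43964488. GCKR (ENSG00000084734) lies on the plus strand of chromosome 2, from 27496842 to 27523684, and MTARC1 (ENSG00000186205) on the plus strand of chromosome 1, from 220786759 to 220819657. TM6SF2 (ENSG00000213996) and MBOAT7 (ENSG00000125505) are both on the minus strand of chromosome 19, from 19264364 to 19273391 and from 54173412 to 54189882. HSD17B13 (ENSG00000170509) is on the minus strand of chromosome 4, from 87303789 to 87322906. Some exons are shared with other genes on the same strand, so that reads there could be split between them. PNPLA3 shares 148 exonic bases with SAMM50, TM6SF2 shares 1021 with the non-coding transcript AC138430.1, and HSD17B13 shares 162 with AC108516.2. SAMM50 is in the count table and the other 2 genes are not.

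RefSeq promoter windows (GRCh38.p14) were at hand for TM6SF2, MBOAT7, GCKR, HSD17B13 and MTARC1, but not for PNPLA3, which was not searched. The sequences of TM6SF2, GCKR and MTARC1 are shown because these 3 genes were lower in OA than in WT. Each runs 5′ to 3′ on the gene's own strand. Those of TM6SF2 and MTARC1 stop where the annotated gene begins. That of GCKR stops where the RefSeq window ends, just before the annotated gene. Capitals, present in TM6SF2 alone, mark a CCAAT box.
TM6SF2, chr19:19273392-19273551, minus strand: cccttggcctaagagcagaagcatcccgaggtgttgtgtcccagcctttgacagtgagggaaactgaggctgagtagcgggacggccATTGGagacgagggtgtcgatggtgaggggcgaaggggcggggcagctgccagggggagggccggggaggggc
GCKR, chr2:27496589-27496838, plus strand: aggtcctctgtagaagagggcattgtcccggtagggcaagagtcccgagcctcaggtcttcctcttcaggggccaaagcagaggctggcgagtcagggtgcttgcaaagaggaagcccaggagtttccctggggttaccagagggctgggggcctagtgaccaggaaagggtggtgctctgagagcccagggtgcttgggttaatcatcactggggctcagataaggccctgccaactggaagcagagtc
MTARC1, chr1:220786663-220786758, plus strand: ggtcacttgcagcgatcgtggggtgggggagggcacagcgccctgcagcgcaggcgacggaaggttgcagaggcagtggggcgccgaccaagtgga

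Both strands of the 250 bases before each of these 5 RefSeq starts were searched for 4 motifs. The CCAAT box was found in reverse in TM6SF2, from 163 to 159 bases before the start, and in MTARC1, from 97 to 93 bases before it. Positions count back from the RefSeq start, which lies inside the annotated gene for both, past the end of the printed stretch. The MTARC1 match falls in that part and is not among the printed bases. The CCAAT box occurred in 32.0% of 35116 promoters of the same length. The E-box CACGTG was found in HSD17B13, 111 to 106 bases before the start, and in 6.34% of all promoters. The sterol regulatory element (TCAC, 1 base of any kind, CCAC) and the LXR element (AGGTCA repeated after 4 bases of any kind) were in none of the 5 windows, and in 0.883% and 0.0142% of all promoters. A match of letters is a description of the window and not evidence of binding. The absence of exact matches this rare from 5 windows is not evidence against it.

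Total estimated counts lay between 16447398 and 36147431 for DNL, between 7836520 and 28636903 for OA and between 26425694 and 43043347 for WT libraries. The upper limit for a gene with 0 counts, taken as 3 counts, lay between 0.0697 and 0.383 CPM (counts scaled to a common library size, in the usual unit), for counting error only. This limit was computed from library totals, without the scaling factors used for the levels, so the 2 compare only roughly. All 10 hepatocyte markers were measured, with a summed level of 77730 to 79950 CPM in DNL libraries, 14440 to 16180 CPM in OA and 42830 to 44510 CPM in WT. The larger part of that sum was APOB, at means of 49000 CPM in DNL, 8768 CPM in OA and 30210 CPM in WT. Each marker had a lower mean in OA than in WT. In DNL only HNF4A was lower than in WT, at means of 481 against 567 CPM. The OA libraries stood apart in collagens, products of fibroblasts and stellate cells. COL1A1 was at 19.4, 85.0 and 537 CPM in OA replicates 1, 2 and 3, but at 0.399 to 0.706 CPM in DNL and 0.622 to 0.990 CPM in WT. COL1A2 was at 10.2, 41.0 and 260 CPM in the same OA libraries and at 0 in all DNL and WT libraries. The summed level of all 8 stellate cell and fibroblast markers was 91.6 to 92.9 CPM in DNL, 95.9 to 1062 CPM in OA and 71.9 to 78.0 CPM in WT, and 7 of the 8 passed the filter. Most of the sum in DNL and WT was ACTA2, at means of 88.4 and 61.3 CPM. In OA, ACTA2 ran from 58.5 CPM, below every WT library, to 164 CPM. PDGFRB was highest in WT, with a mean of 9.93 CPM, against 4.77 CPM for OA and 1.035 CPM for DNL. DCN means were 1.55 CPM in DNL, 2.73 CPM in OA and 1.58 CPM in WT. RGS5 and LUM, like the collagens, peaked in OA replicate 3, at 23.0 and 0.71 CPM. Of 8 leukocyte markers 4 passed the filter, summing to 1618 to 1712 CPM in DNL, 1057 to 1092 CPM in OA and 979.1 to 989.6 CPM in WT. Nearly all of that sum was LYZ, the lysozyme gene, at means of 1637 CPM in DNL, 1028 CPM in OA and 940.5 CPM in WT, while MARCO and CD163 were at 0 in all libraries. The sum of 6 endothelial markers, 2 of which passed, was 5.27 to 6.92 CPM in DNL, 0.988 to 2.14 CPM in OA and 1.52 to 1.96 CPM in WT, with STAB2 at 0. The sum of 5 adipocyte markers, 3 of which passed, was 16.4 to 17.2 CPM in DNL, 17.0 to 20.6 CPM in OA and 13.9 to 15.8 CPM in WT, with FABP4 at 0. The part of these markers in the results was not tested, and OA values are given below also without OA replicate 3, and without replicates 2 and 3, where that changes a call. In bulk RNA, fewer cells of a type and less RNA per cell cannot be told apart.

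**Figure D1:**
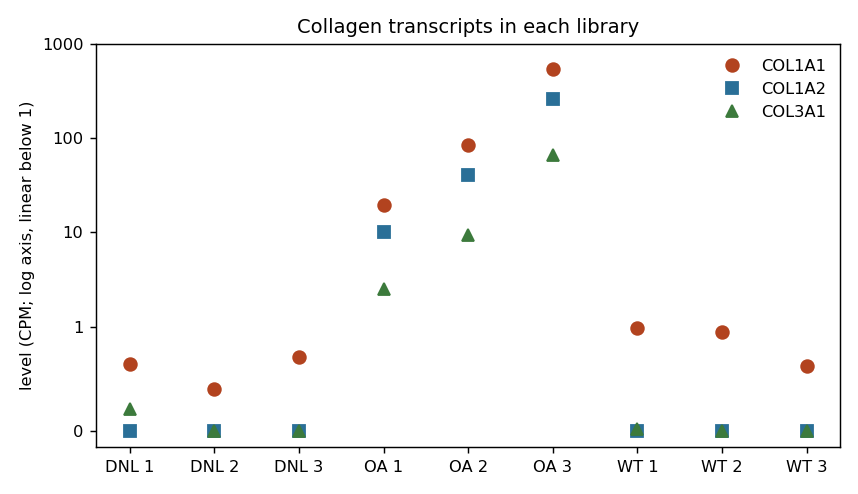
Levels of COL1A1, COL1A2 and COL3A1 in each of the 9 libraries, in CPM on a log axis that is linear below 1. The 3 OA libraries lie above all others and differ among themselves, with COL1A1 at 19.4, 85.0 and 537 CPM.

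Against WT, 1 of the 6 genes rose and 2 fell in DNL, where 27.1% of all tested genes were called higher and 26.8% lower. In OA, 0 rose and 4 fell, beside 30.4% called higher and 29.7% lower among all tested genes. The median log2 fold change of the 6 genes was -0.23 in DNL and -0.49 in OA, while that of all tested genes was -0.02 and -0.03. Counts and medians of the gene lists below are to be read beside these shares and medians of all tested genes. No set test was run on the lists, so their counts are descriptive. A call here is a Benjamini-Hochberg adjusted p under 0.05 in edgeR's quasi-likelihood test, adjusted over all 13636 genes, and every adjusted p below comes from that test. Levels are CPM after scaling by TMM (trimmed mean of M values), as mean ± SD over 3 samples. No label says that replicates came from separate cultures, so the p-values measure only the spread between these samples.

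**Figure D2:**
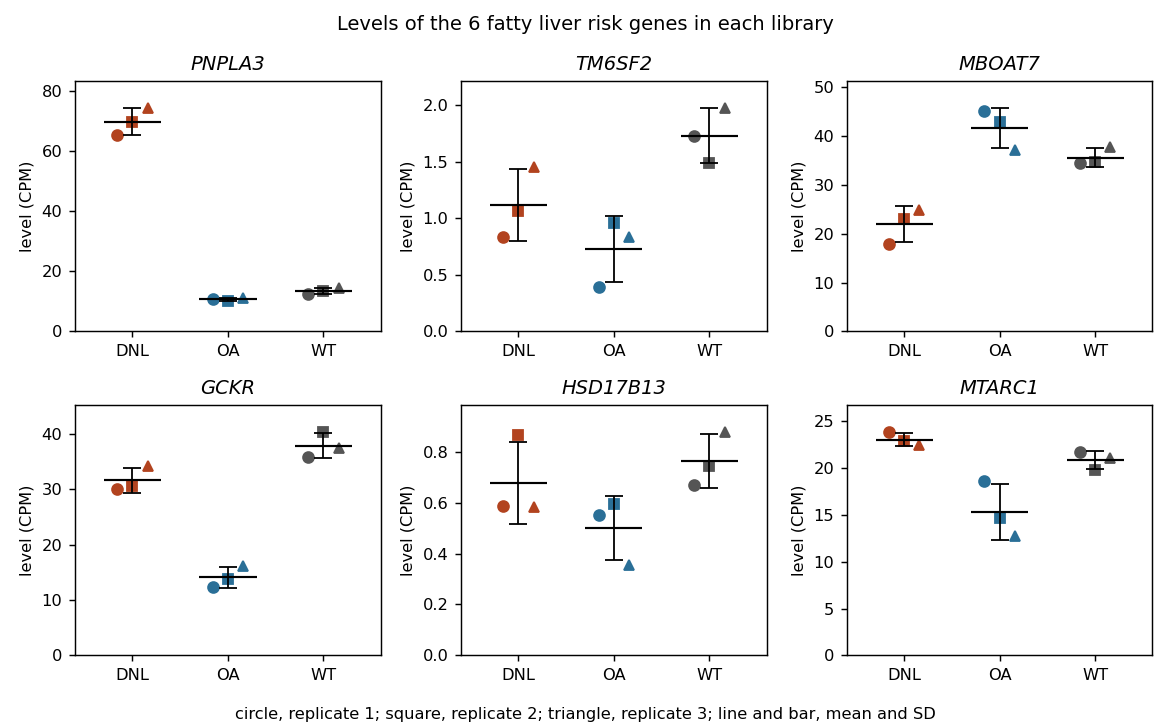
Level of each of the 6 genes in every library, in TMM-scaled CPM, with the mean and SD of each group of 3. PNPLA3 was between 65.4 and 74.5 CPM in DNL and at most 14.6 CPM elsewhere, and GCKR was lowest in all 3 OA libraries.

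PNPLA3, a lipase and acyltransferase of the droplet surface whose transcription is known to follow SREBP activity, was the only member of the 6 that rose in DNL. It measured 65.4, 69.9 and 74.5 CPM in DNL replicates 1, 2 and 3, against 12.5, 13.4 and 14.6 CPM in WT. The groups were far apart, with means of 69.9 ± 4.55 and 13.5 ± 1.02 CPM. The log2 fold change was 2.38 (SE 0.0839, adjusted p = 1.5e-10), a 5.20-fold difference, and 2.44% of tested genes changed at least as much. In OA it measured 10.9, 10.0 and 11.2 CPM, all below the lowest WT library. It fell to 10.7 ± 0.60 CPM in OA, against 13.5 ± 1.02 CPM in WT (log2 fold change -0.35, adjusted p = 0.00603). Among tested genes, 59.4% changed at least as much in OA. Without OA replicates 2 and 3 the log2 fold change was -0.30 and the call was lost (adjusted p = 0.097), with the remaining OA library assumed to vary like the other groups.

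PNPLA2, the main triacylglycerol lipase of hepatocytes and adipocytes, fell to 106 ± 1.30 CPM in DNL, against 122 ± 6.71 CPM in WT (log2 fold change -0.20, adjusted p = 0.00541). In OA it rose to 158 ± 7.19 CPM (adjusted p = 3.48e-05). Per kilobase of the principal transcript, PNPLA3 stood at 0.570 ± 0.0312 of the PNPLA2 level in DNL, 0.0587 ± 0.00569 in OA and 0.0960 ± 0.00956 in WT. ABHD5, the activator of PNPLA2, fell to 4.21 ± 1.04 CPM in DNL and rose to 24.0 ± 2.25 CPM in OA, against 12.3 ± 1.19 CPM in WT. G0S2, which inhibits PNPLA2, did not pass the filter, at means of 0.223 CPM in DNL, 0 in OA and 0.264 CPM in WT. Of 11 listed genes of the PNPLA family and its lipase partners, 8 were tested. In DNL 1 rose and 3 fell (median log2 fold change -0.24), and in OA 5 rose and 1 fell (median 0.67). PNPLA6, a phospholipase linked to nerve integrity, was higher in both, with log2 fold changes of 1.29 in DNL and 1.19 in OA. PNPLA8, a calcium-independent phospholipase, had log2 fold changes of -0.66 in DNL and 1.10 in OA, each called. PNPLA4 was the member that fell in OA, at 5.81 ± 0.574 CPM, against 10.1 ± 0.161 CPM in WT. In DNL it was at 8.29 ± 0.705 CPM (adjusted p = 0.086), and was called lower with library totals (0.0109) and in limma-voom (0.035).

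TM6SF2, which promotes the lipidation of VLDL, was measured at a low level in all groups. Its estimated counts were 16.1 to 35.1 in DNL libraries, 5.09 to 29 in OA and 44.4 to 74.9 in WT. In OA it measured 0.395, 0.955 and 0.831 CPM, against 1.73, 1.49 and 1.98 CPM in WT. It fell in OA (log2 fold change -1.20, SE 0.381, adjusted p = 0.0155), a 2.30-fold lower level with a 95% interval of the log2 fold change from -2.03 to -0.37. Among tested genes, 14.2% changed at least as much in OA. Omitting OA replicate 1 gave an adjusted p of 0.0571, and omitting WT replicate 3 one of 0.0528, so that the call was lost, while without OA replicates 2 and 3 the log2 fold change was -2.12 (adjusted p = 0.013). In DNL it measured 0.832, 1.06 and 1.45 CPM, all below the lowest WT library, with the highest of them close to it. That difference did not pass the test (log2 fold change -0.63, 95% interval -1.40 to 0.13, adjusted p = 0.148), so a fall of more than 2-fold and no fall both lie within the interval.

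The partners of TM6SF2 in lipoprotein assembly were far more abundant. APOB, the structural protein of VLDL, measured 48470 to 49980 CPM in DNL and 8250 to 9625 CPM in OA, against 29330 to 30830 CPM in WT. MTTP, which transfers lipid to APOB, fell to 50.7 ± 6.11 CPM in OA, against 161 ± 5.57 CPM in WT (log2 fold change -1.67), and was called higher in DNL at 187 ± 7.13 CPM. The call in DNL was lost with scaling by library totals, where the log2 fold change was 0.05 (adjusted p = 0.547), and without WT replicates 2 or 3 (0.0645 and 0.0524). ERLIN1, a membrane protein of the endoplasmic reticulum, fell in both, by 0.28 in DNL and by 0.84 in OA on the log2 scale. ERLIN2, its paralog, rose in DNL with a log2 fold change of 0.50 and fell in OA by 0.75 on that scale. Of 12 listed partners, 11 were tested: 4 rose and 5 fell in DNL (median log2 fold change 0.10), and 2 rose and 8 fell in OA (median -0.65). SURF4, a cargo receptor for secreted proteins, was among the 2 that rose in OA, with a log2 fold change of 0.36. In DNL it was called lower at -0.10 (adjusted p = 0.0345), and 9 of the alternatives ended that call, with adjusted p between 0.0506 and 0.154. TM6SF1, the paralog of TM6SF2, had a count of 0 in all libraries.

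MBOAT7 was lowest in DNL, where PNPLA3 was highest. It measured 17.9, 23.0 and 24.9 CPM in DNL, against 34.3, 34.5 and 37.7 CPM in WT, with no overlap. It fell to 22.0 ± 3.59 CPM in DNL, against 35.5 ± 1.89 CPM in WT (log2 fold change -0.70, SE 0.113, adjusted p = 0.00018). Among tested genes, 25.1% changed at least as much as MBOAT7. In OA it measured 45.0, 42.7 and 37.1 CPM, and the OA library with the most collagen lay within the range of WT. The difference of OA from WT did not pass the test (log2 fold change 0.23, 95% interval -0.01 to 0.48, adjusted p = 0.0883). It was called higher without OA replicate 3 (log2 fold change 0.30, adjusted p = 0.0415) and without DNL replicate 1 (adjusted p = 0.0295), in limma-voom (adjusted p = 0.0464), in a fit of OA and WT alone (adjusted p = 0.0234) and with scaling by library totals (0.0434).

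LPCAT3, the family member that remodels phosphatidylcholine and a known LXR target, rose to 216 ± 13.4 CPM in DNL, against 53.8 ± 2.78 CPM in WT. In OA it was also called higher, at 69.9 ± 3.42 CPM (log2 fold change 0.37). MBOAT4, which acylates ghrelin, was at 2.47 ± 0.231 CPM in DNL and 0.769 ± 0.0868 CPM in OA, against 0.217 ± 0.0295 CPM in WT, both called higher. SOAT2, which esterifies cholesterol, rose to 38.1 ± 1.73 CPM in DNL and fell to 15.8 ± 1.36 CPM in OA, against 22.8 ± 0.643 CPM in WT. Of 10 listed MBOAT relatives, 8 were tested: 4 rose and 0 fell in DNL (median log2 fold change 0.50), and 2 rose and 1 fell in OA (median 0.19). CDIPT, which makes phosphatidylinositol, fell in DNL and in OA by 0.42 and 0.43 on the log2 scale. Of 14 genes of phosphatidylinositol synthesis and acyl remodelling, all tested, 7 rose and 1 fell in DNL (median log2 fold change 0.16), and 5 rose and 7 fell in OA (median -0.23). ACSL4, which activates arachidonic acid, measured 1164 ± 22.5 CPM in DNL and 235 ± 18.3 CPM in OA, against 637 ± 25.5 CPM in WT. CDS1, which makes the CDP-diacylglycerol precursor, was called higher in both, with log2 fold changes of 2.08 in DNL and 1.65 in OA.

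GCKR fell in OA in every library. It measured 12.4, 13.7 and 16.2 CPM in OA, against 35.9, 40.4 and 37.6 CPM in WT. Here the OA library with the most collagen was the nearest to WT. The means were 14.1 ± 1.90 and 37.9 ± 2.30 CPM (log2 fold change -1.44, SE 0.101, adjusted p = 7.23e-08), and 10.0% of tested genes changed at least as much. Without OA replicates 2 and 3 the log2 fold change was -1.61 (adjusted p = 1.68e-06). In DNL it measured 30.1, 30.6 and 34.2 CPM, all below the WT libraries by a small margin. It was called lower in DNL (log2 fold change -0.26, adjusted p = 0.0298), and 62.2% of tested genes changed at least as much. That call was lost without DNL replicates 1 or 2 or WT replicates 2 or 3, with adjusted p = 0.131, 0.105, 0.114 and 0.0629 in that order.

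Hexokinases, which phosphorylate glucose, were measured as well. HK2 measured 412 ± 8.95 CPM in DNL and 191 ± 6.64 CPM in OA, against 325 ± 2.87 CPM in WT, called higher in DNL and lower in OA. HKDC1 took the other direction, at 79.7 ± 2.0 CPM in DNL and 183 ± 16.2 CPM in OA, against 108 ± 3.38 CPM in WT. HK1 was called higher in both, at 3.8 ± 0.889 CPM in DNL and 8.02 ± 2.21 CPM in OA, against 0.858 ± 0.187 CPM in WT. SLC2A2, the hepatocyte glucose transporter, fell by 1.92 in DNL and 2.6 in OA on the log2 scale. G6PC1, which releases free glucose, fell by 1.21 and 5.46 on the same scale. Of 13 genes around hexokinase, 11 were tested, with 5 higher and 4 lower in DNL (median log2 fold change 0.14) and 4 higher and 4 lower in OA (median -0.21).

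HSD17B13, a droplet enzyme that is abundant in human liver, was barely detected. Its estimated counts were 19.0, 12.8 and 14.4 in DNL libraries and 7.47, 17.5 and 3.17 in OA, against 29, 21.8 and 24.3 in WT. The levels were 0.677 ± 0.163 CPM in DNL and 0.501 ± 0.127 CPM in OA, against 0.763 ± 0.106 CPM in WT. The DNL libraries overlapped those of WT, and the OA libraries lay below them. Neither difference passed the test (log2 fold change -0.19, 95% interval -1.02 to 0.63, in DNL, and -0.53, 95% interval -1.42 to 0.35, in OA; adjusted p = 0.694 and 0.28). At this depth a change of 2-fold downwards in DNL or OA lay within the intervals.

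HSD17B11, the adjacent paralog of HSD17B13, was one of the more abundant genes of its family, and per kilobase HSD17B13 stood at 0.00371 ± 0.000858 of its level in DNL, 0.00302 ± 0.000822 in OA and 0.00382 ± 0.000606 in WT. HSD17B11 measured 144 ± 1.11 CPM in DNL and 131 ± 8.51 CPM in OA, against 157 ± 6.18 CPM in WT. It was called lower in both (adjusted p = 0.0421 and 0.000624), the call in DNL being lost without any single DNL replicate, without WT replicates 1 or 3 (adjusted p between 0.0834 and 0.207) with RLE size factors (0.067), in DESeq2 (0.0644) and after thinning all libraries to the shallowest (0.0831). HSD17B12, which elongates fatty acids, rose to 416 ± 8.67 CPM in DNL, against 175 ± 6.46 CPM in WT (log2 fold change 1.25). In OA it was at 162 ± 10.3 CPM (adjusted p = 0.0518), and was called lower with no filter (0.0318), with a filter of 1 CPM (0.0493), in limma-voom (0.0497), without OA replicate 1 (0.00431) and without WT replicate 3 (0.0331). HSD17B7, an enzyme of cholesterol synthesis, rose in both, with log2 fold changes of 1.72 in DNL and 1.47 in OA. Of 11 listed relatives, 10 were tested: 3 rose and 3 fell in DNL (median log2 fold change -0.01), and 2 rose and 4 fell in OA (median -0.09). Among 16 genes of retinoid handling, 11 were tested, with 3 higher and 2 lower in DNL (median log2 fold change -0.10) and 1 higher and 3 lower in OA (median -0.14). RDH11, a retinol dehydrogenase, had a log2 fold change of 1.11 in DNL, and RDH10, another, fell by 0.94 there. In OA neither was called, at log2 fold changes of -0.03 and -0.09 (adjusted p = 0.613 and 0.16). RBP4, the plasma carrier of retinol, fell to 573 ± 30.5 CPM in DNL and 230 ± 12.1 CPM in OA, against 699 ± 14.5 CPM in WT. RDH16 had a count of 0 in all libraries.

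MTARC1 measured 18.6, 14.6 and 12.7 CPM in OA replicates 1, 2 and 3, against 21.7, 19.8 and 21.1 CPM in WT. All OA libraries lay below WT, and the 2 with more collagen transcripts were the lower ones. OA replicate 3, with the most collagen, also had the smallest total count of all libraries (7836520). MTARC1 fell to 15.3 ± 2.99 CPM in OA, against 20.8 ± 0.948 CPM in WT (log2 fold change -0.44, SE 0.117, adjusted p = 0.00536). Among tested genes, 50% changed at least as much. The log2 fold change was -0.35 without OA replicate 3 (adjusted p = 0.0178) and -0.17 without OA replicates 2 and 3, where the call was lost (adjusted p = 0.275). In DNL it measured 23.8, 22.8 and 22.4 CPM, just above the highest WT library. That difference did not pass the test (log2 fold change 0.14, 95% interval -0.10 to 0.38, adjusted p = 0.298) and had the other sign with scaling by library totals (-0.02).

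MTARC2, the adjacent paralog with the same enzyme activity, fell more in OA, to 2.10 ± 0.192 CPM, against 6.6 ± 0.422 CPM in WT (log2 fold change -1.64, adjusted p = 2.84e-06). In DNL it was at 7.43 ± 0.577 CPM (adjusted p = 0.364). Per kilobase of principal transcript, MTARC1 stood at 0.891 ± 0.0574 of the MTARC2 level in DNL, 2.12 ± 0.602 in OA and 0.907 ± 0.0490 in WT. CYB5B and CYB5R3 feed electrons to MTARC1, and both rose in DNL. CYB5B, the cytochrome of the mitochondrial outer membrane, measured 228 ± 10.6 CPM in DNL and 125 ± 20.8 CPM in OA, against 88.4 ± 3.11 CPM in WT, called higher in both. CYB5R3, its reductase, was at 295 ± 47.7 CPM in DNL, called higher, and at 138 ± 14.9 CPM in OA, against 133 ± 3.10 CPM in WT (adjusted p = 0.733 for OA). SUOX, the sulfite oxidase, rose in DNL to 35 ± 1.19 CPM, against 14.9 ± 0.697 CPM in WT. Its OA level was 16.2 ± 3.01 CPM (adjusted p = 0.37), and it was called higher there without OA replicates 2 and 3 (log2 fold change 0.40, adjusted p = 0.0146). Of 13 genes of the molybdenum cofactor enzymes and these partners, all tested, 7 rose and 3 fell in DNL (median log2 fold change 0.22), and 1 rose and 4 fell in OA (median -0.01). MOCOS, which sulfurates the cofactor of other molybdenum enzymes, fell by 1.11 in DNL and by 1.21 in OA on the log2 scale. AOX1, an aldehyde oxidase, fell by 0.92 in OA. In DNL it was called higher by 0.16 (adjusted p = 0.0202), a call lost with library totals (-0.007) and without DNL replicates 1 or 3 or WT replicates 1 or 2 (adjusted p = 0.0501, 0.05, 0.0561 and 0.0591).

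**Figure D3:**
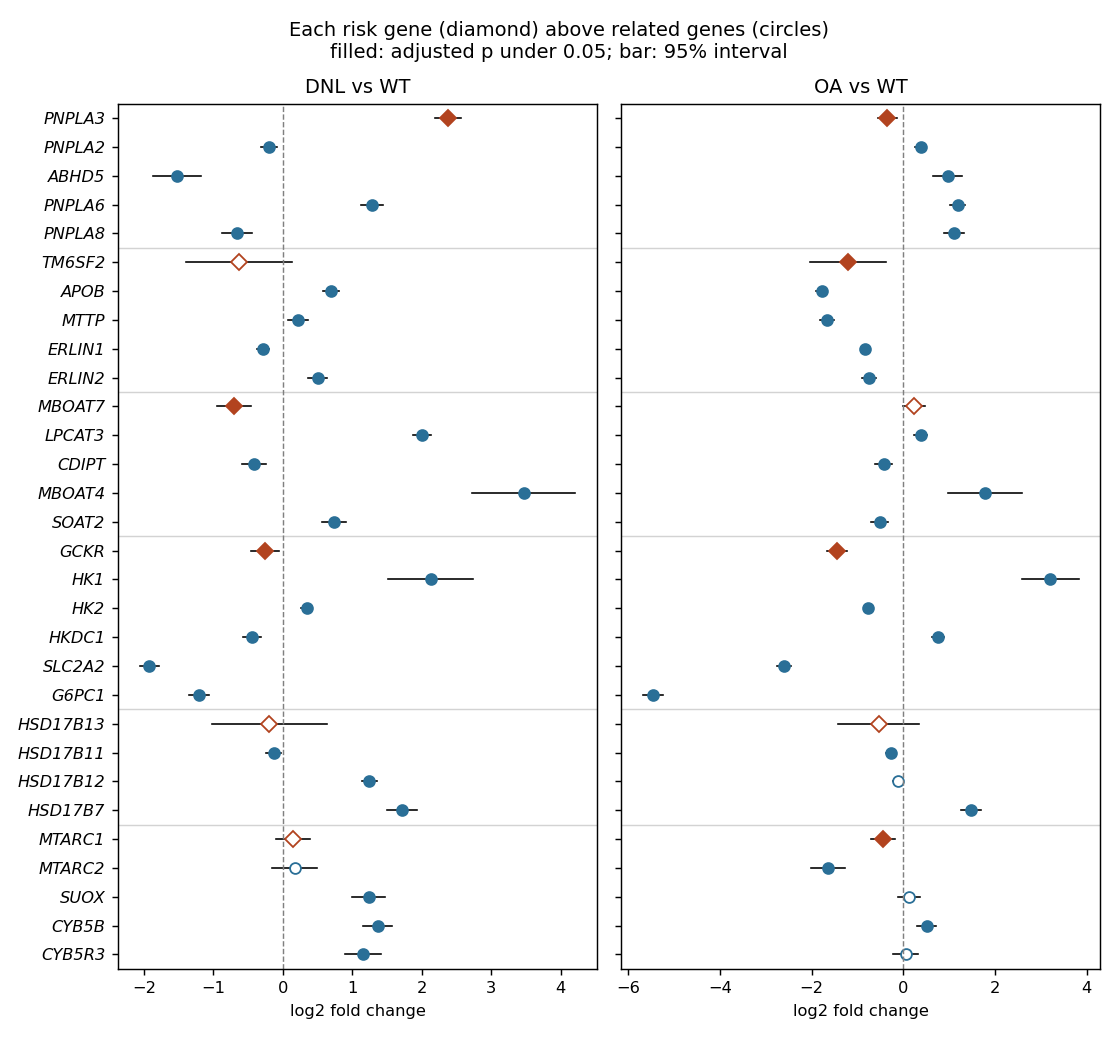
Log2 fold change of each risk gene (diamond) and of related genes (circles) in DNL and OA against WT, with 95% intervals and filled symbols at adjusted p under 0.05. PNPLA3 stands at 2.38 in DNL while PNPLA2 stands at -0.20, and TM6SF2, APOB and MTTP all lie below 0 in OA.

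DNL set directly against OA asks where the models differ. Of the 6 genes, 3 were higher in DNL and 1 was lower, beside 31.9% and 30.9% of all tested genes. PNPLA3 averaged 69.9 CPM in DNL and 10.7 CPM in OA (log2 fold change 2.72, SE 0.0911, adjusted p = 4.62e-11). GCKR was 2.27-fold higher in DNL (log2 fold change 1.18, adjusted p = 3.81e-07). MTARC1 was 1.5-fold higher (log2 fold change 0.59, adjusted p = 0.000733), and lost the call without OA replicates 2 and 3 (log2 fold change 0.31, adjusted p = 0.0505). MBOAT7 was the member that was lower, at 22.0 CPM in DNL and 41.6 CPM in OA (log2 fold change -0.94, adjusted p = 1.23e-05). For TM6SF2 and HSD17B13 the log2 fold changes were 0.57 and 0.34, with 95% intervals of -0.29 to 1.42 and -0.58 to 1.26. The groups did not overlap for 5 of the 6 genes in DNL against WT, for 5 in OA against WT and for 4 in DNL against OA. Among all tested genes they did not overlap for 64.7%, 65.7% and 66.2% in the same order. The comparisons of DNL and OA with WT share the WT samples.

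**Figure D4:**
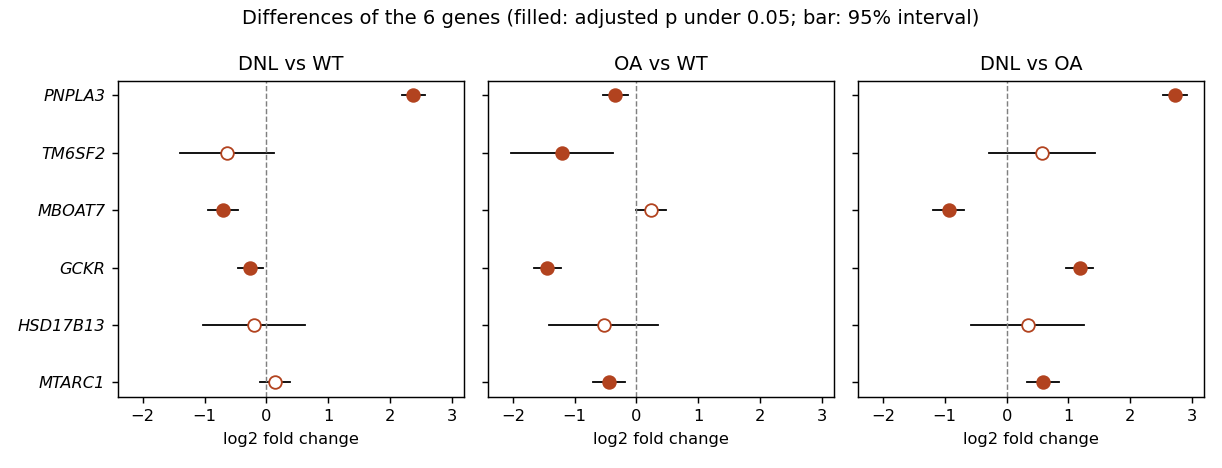
Log2 fold changes of the 6 genes in the 3 comparisons, with 95% intervals, filled where the adjusted p is under 0.05. In OA the 4 called genes all lie below 0, and the widest intervals belong to TM6SF2 and HSD17B13, whose counts were lowest.

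The order of the 6 genes by level, per kilobase of the principal transcript, differed between groups. In DNL it was PNPLA3 (24.9 ± 1.62 CPM per kb), GCKR (14.5 ± 1.04), MBOAT7 (8.68 ± 1.42) and MTARC1 (3.09 ± 0.0993). In OA it was MBOAT7 (16.4 ± 1.62 CPM per kb), GCKR (6.45 ± 0.870), PNPLA3 (3.81 ± 0.214) and MTARC1 (2.05 ± 0.401). In WT it was GCKR (17.4 ± 1.05 CPM per kb), MBOAT7 (14.0 ± 0.748), PNPLA3 (4.81 ± 0.364) and MTARC1 (2.80 ± 0.127). TM6SF2 and, at the bottom, HSD17B13 lay below these in every group, at 0.742 and 0.283 CPM per kb in DNL, 0.483 and 0.209 in OA, and 1.15 and 0.318 in WT. The ranges of neighbours in the order did not overlap within any group, which does not measure error in the lengths. The order rests on 1 annotated length per gene, 7439 bases for MTARC1 and 2805 for PNPLA3. Which transcripts the cells expressed was not examined. Without division by length, MTARC1 lay above PNPLA3 in WT (means of 20.84 against 13.48 CPM) and in OA (15.29 against 10.69 CPM). In DNL it lay below PNPLA3 (23.02 against 69.95 CPM).

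The nearest tested protein-coding genes on the chromosome were examined for each member. SAMM50, a gene of mitochondrial outer membrane assembly that overlaps the end of PNPLA3, had log2 fold changes of 0.43 in DNL and 0.24 in OA, called in both, where those of PNPLA3 were 2.38 and -0.35. PNPLA5, 31725 bases on the other side, was at 0.255 to 0.566 CPM on average in the 3 groups and was not called. Around TM6SF2, the proteoglycan link gene HAPLN4 was 1567 bases away and fell in OA to 0.608 CPM, against 1.90 CPM in WT (log2 fold change -1.63, adjusted p = 0.00154). That call was lost after thinning (adjusted p = 0.115) and without OA replicates 2 and 3 (adjusted p = 0.0667). SUGP1, a splicing-related gene 2626 bases away, was at 4.99 ± 1.72 CPM in OA, against 7.47 ± 1.82 CPM in WT (adjusted p = 0.0626), and was called lower without OA replicate 1 (0.0178) and without WT replicate 1 (0.0388). Beside MBOAT7, the tRNA splicing gene TSEN34 starts 55 bases away on the opposite strand and was not called in DNL or OA. CNOT3, a deadenylase subunit on the other side, had log2 fold changes of -0.33 in DNL (adjusted p = 0.0723) and 0.62 in OA (adjusted p = 0.00304). In DNL it was called lower with library totals (adjusted p = 0.008), in DESeq2 (0.0448), in limma-voom (0.0447), in a fit of DNL and WT alone (0.028), without OA replicate 2 (0.0184) and without OA replicates 2 and 3 (0.0224). TMC4, another gene of this locus, had means of 0.0103 CPM in DNL and 0 in OA and WT and was not tested.

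FNDC4, which lies 1596 bases from GCKR and encodes a secreted factor, fell in OA with a log2 fold change of -0.91, and in DNL with -0.50. C2orf16, on the other side of GCKR, rose in DNL to 6.81 CPM and fell in OA to 0.990 CPM, against 2.34 CPM in WT. Around HSD17B13, KLHL8 was not called in either comparison, and HSD17B11 was described above. MTARC2 lies 1943 bases from MTARC1, and DUSP10, a phosphatase gene 881766 bases away, rose in OA (log2 fold change 1.19), which lost the call without OA replicates 2 and 3 (0.68, adjusted p = 0.0523).

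**Figure D5:**
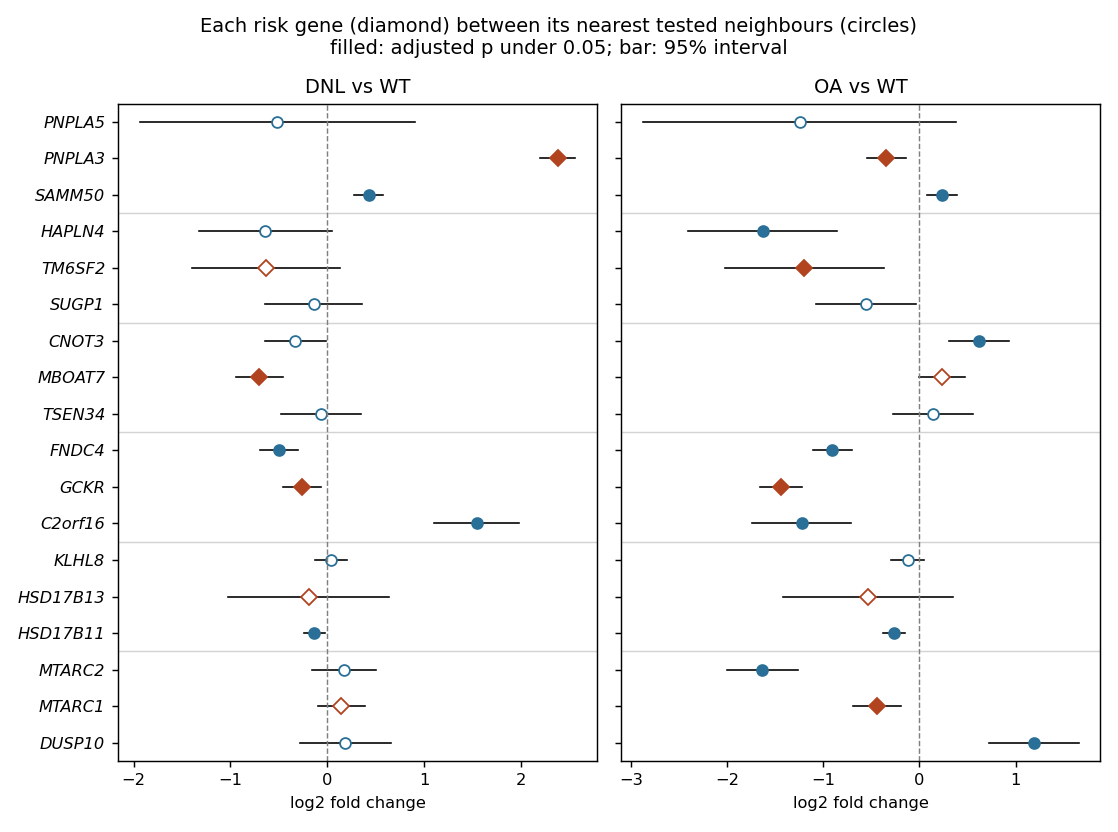
Log2 fold change of each risk gene (diamond) between its nearest tested protein-coding neighbours (circles), in DNL and OA against WT, with 95% intervals and filled symbols at adjusted p under 0.05. PNPLA3 at 2.38 stands away from SAMM50 at 0.43 in DNL, and GCKR, FNDC4 and C2orf16 are all called lower in OA.

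Several regulators named in textbooks for these genes were measured. SREBF1, which encodes the lipogenic SREBP, measured 310 ± 11.1 CPM in DNL and 57.1 ± 1.62 CPM in OA, against 78.6 ± 1.44 CPM in WT, called higher in DNL and lower in OA. MLXIPL, the gene of the carbohydrate response factor ChREBP, fell to 180 ± 3.67 CPM in DNL and 41.9 ± 3.29 CPM in OA, against 269 ± 12.8 CPM in WT. NR1H3, the LXR alpha gene, was at 46.6 ± 3.84 CPM in DNL and 12.4 ± 3.29 CPM in OA, against 27.4 ± 2.95 CPM in WT, called higher in DNL and lower in OA. Of 15 transcription factors and cofactors of lipid and glucose metabolism, all tested, 6 rose and 6 fell in DNL (median log2 fold change -0.003), and 3 rose and 11 fell in OA (median -0.48). Of 27 other genes linked to inherited or familial fatty liver, 25 were tested, with 13 higher and 6 lower in DNL (median 0.18) and 7 higher and 14 lower in OA (median -0.28). GPAM, which starts glycerolipid synthesis, fell in both, by 0.80 in DNL and 2.38 in OA on the log2 scale. SERPINA1, the alpha-1 antitrypsin gene, had log2 fold changes of 1.97 in DNL and -0.31 in OA, each called. PCYT1A, of phosphatidylcholine synthesis, had 0.18 in DNL and 0.73 in OA, each called, the call in DNL being lost with library totals (0.01, adjusted p = 0.83).

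For each member, the genes with the most similar profile over the 9 libraries were sought among 10275 genes whose mean reached 5 CPM, by Pearson's r of log2 (CPM + 0.5). These values are descriptive, since libraries of 1 group share their treatment and many genes follow the same 3 group means. PNPLA3 was closest to MATN3, a matrix protein gene, DUSP3, a phosphatase gene, and LDHA, the lactate dehydrogenase A gene (r = 0.999 each). GCKR was closest to TNS2, TRIM44 and CCN2 (r between 0.992 and 0.995). MBOAT7 was closest to ATP6V0B, a proton pump subunit gene, followed by TPRN and RHBDF1 (r between 0.978 and 0.993). MTARC1 was closest to OGT, which attaches N-acetylglucosamine to proteins, and to MTRF1 and STOML2 (r between 0.983 and 0.986). TM6SF2 was closest to ANXA7, FNTA and MIEF1 (r between 0.944 and 0.956), and HSD17B13 to CTBP1, MRPL14 and ZNF839 (r between 0.931 and 0.935). Among the members themselves, r over the 9 libraries ran between -0.924 for PNPLA3 and MBOAT7 and 0.821 for TM6SF2 and GCKR.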

How the data were processed

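Stranded total RNA libraries with ribosomal RNA removed were made from 9 HepG2 samples, per the labels' protocols. The deposited table holds estimated counts for each gene. The submitters' processing notes name kallisto 0.48.0, FastQC 0.11.9 and GRCh38, and no annotation release or strand setting is given in the sources used here. Symbols matched 19316 of 19317 identifiers, and GENCODE 29 matched 19272.

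Estimated counts were rounded, filtered with filterByExpr, scaled by TMM and tested with edgeR 4.0.16 (glmQLFit and glmQLFTest, robust) in R 4.3.3, in 1 fit of all 9 samples with group as the factor. The common dispersion was 0.0112. SEs were the log2 fold change divided by the root of its F statistic. The code was tested on simulated data. Replicates differed by more than sampling noise (chi-square per degree of freedom 5.29 to 15.8).

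The 6 genes, the lists and the motifs were chosen with earlier results of these data known. Named genes were the 6, a fixed set of partners, up to 2 further called genes per list, direction and comparison, the nearest tested neighbours and the 3 most similar profiles; 1 partner gene is not reported here. Collagens come from the marker lists. Alternatives were other scalings, filters and tools (DESeq2 1.42.0, limma-voom 3.58.1), a replicate block, fits of 2 groups and omission of libraries. Thinning, and omission of OA replicates 2 and 3 together, were chosen after seeing the data.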

Additional observations from a re-analysis of the deposited data

How the results depend on the processing

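Each of the 6 genes was refitted under 19 alternatives, and HSD17B13 under 17, since it did not pass the filter of at least 1 CPM in 3 samples or the filter after thinning. PNPLA3 and MBOAT7 in DNL against WT, GCKR in OA against WT, and PNPLA3, MBOAT7 and GCKR in DNL against OA kept direction and call in all of them. The cause of the following changes was not tested. For MTARC1 in DNL against WT, the log2 fold change was -0.023 with library totals and -0.014 after thinning. Library totals moved the median of all genes by -0.17 in DNL against WT and by -0.23 in DNL against OA, and the share of calls that were higher was then 32.2% and 33.9%, against 50.3% and 50.8% with TMM. Without OA replicates 2 and 3, the log2 fold changes of PNPLA3 and MTARC1 in OA were -0.30 and -0.17 against WT. That of MTARC1 was then 0.31 in DNL against OA. MBOAT7 in OA was called higher with library totals (0.30), in limma-voom (0.26) and in a fit of 2 groups (0.25). With 1 library omitted at a time, log2 fold changes ran between -0.32 and -0.21 for GCKR in DNL, between -1.55 and -0.93 for TM6SF2 in OA and between 0.18 and 0.30 for MBOAT7 in OA. Of the 6 genes, 1 to 2 were then called lower in DNL and 0 to 1 higher in OA. In the main fit 26.8% and 30.4% of all tested genes were called so. Signs turned for some other genes. With library totals, KLHL8 in DNL was at -0.13, RDH11 in OA at 0.038 and AOX1 in DNL, a called gene, at -0.007. Without OA replicates 2 and 3, TSEN34 and RDH11 in OA were at -0.024 and 0.003, and SUOX in OA at -0.037 after thinning. With 1 library omitted, the ranges were -0.28 to 0.062 for SUGP1, -0.19 to 0.10 for TSEN34 and -0.019 to 0.081 for KLHL8 in DNL, and -0.03 to 0.20 for SUOX, -0.041 to 0.13 for CYB5R3 and -0.053 to 0.005 for RDH11 in OA. Deviations from the group mean had r between -0.0112 and 0.0879 for samples with the same replicate number. For samples with other numbers r lay between -0.0882 and 0.0474. Values this weak cannot decide whether the numbers pair the samples. With a replicate block, 3644 genes were called higher and 3601 lower in DNL against WT, and no call on the 6 genes changed. Counts of 3.17 to 74.9 limit TM6SF2 and HSD17B13.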
